A study of Mus musculus with 17 samples.

Results

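The empty-vector marrow cultures are the baseline of a mouse study of microRNA vectors, and they are described here by themselves, without reference to the other vectors. They were chosen by title and number 6 of the 17 arrays of the series, replicates 1 to 3 in dataset A and replicates 4 to 6 in dataset B. All 6 cultures shared 1 recipe in the labels. Bone marrow of C57Bl/6 mice, collected 4 days after 150 mg/kg of 5-fluorouracil, was cultured for 7 days with serum and the cytokines SCF (stem cell factor), IL-11 and Flt3 ligand, and was infected with the retroviral vector MXW carrying no microRNA. Viable cells that carried the green fluorescent protein EGFP were collected 5 days after the first infection, so the RNA came from the infected cells, with no sort for a lineage. Each dataset is described by its submitters as 3 biological replicates, and the labels used here give neither the age nor the sex of the mice.

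5-Fluorouracil kills dividing marrow cells and spares many quiescent stem and progenitor cells, which then divide to rebuild the tissue. Granulocyte precursors fill their granules in a fixed order: promyelocytes make the primary granule proteins myeloperoxidase, elastase, proteinase 3 and cathepsin G, and later myelocytes make the secondary granule proteins lactoferrin, cathelicidin and neutrophilic granule protein. Transcription factors of the C/EBP family and PU.1 are known regulators of these granule genes. Stem cell factor, the ligand of the receptor Kit, also favours mast cells and their precursors in culture.

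RNA was measured on Illumina bead arrays, in which the brightness of a probe on its bead reports the amount of its transcript. The value called level below is log2 of the intensity after background correction and quantile normalization of the 6 arrays together, and each of 19057 genes is represented by its brightest probe. Genes detected on no array had median levels of 4.31 to 4.32, and genes detected on all 6 had median levels of 7.69 to 7.83. A probe counted as detected at a detection p-value under 0.05. Probes differ in how well they bind, so a rank within an array is a rank of signal and not of transcript number, and an undetected probe does not show that a gene is silent. Dataset A arrays detected 9520, 9561 and 9242 genes, against 8743, 8648 and 9106 genes on the dataset B arrays, and 7440 genes, or 39.0%, were detected on all 6 while 6960 were detected on none. Over the 9029 genes detected on at least 3 of 6 arrays, rank correlations across genes were 0.983 to 0.985 within dataset A and 0.980 to 0.985 within dataset B, against 0.913 to 0.941 for pairs that crossed the datasets. The submitters analysed the datasets apart, and dataset A intensities carried 5 decimals against 1 decimal in dataset B. Dataset and batch cannot be told apart in any difference between A and B.

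The brightest genes were those of protein synthesis and of the primary granule. Of the genes among the 100 brightest of every array, 77 in all or 0.404% of genes, 30 encoded cytosolic ribosomal proteins, 5 belonged to the list of primary granule and promyelocyte genes (Mpo, Prtn3, Ctsg, Elane and Lyz2), 2 to the neutrophil maturation list (S100a8 and S100a9), 3 to glycolysis (Ldha, Gapdh and Pkm) and 5 were histone H2A genes. No gene of the stem and progenitor, monocyte, mast cell, erythroid, lymphoid, dendritic or stromal lists was among them. The sharing was high within a dataset too, with 93 of the 100 brightest common to the 3 arrays of A and 92 common to those of B, and 129 genes entered the 100 brightest of any array.

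Ribosomal protein genes made up 15 of the 25 genes of highest mean rank. Rps12, a protein of the small ribosomal subunit, ranked 13, 12 and 6 on the dataset A arrays and 4, 5 and 5 on those of dataset B, the best mean rank of all genes (7.5). Rpl41, a protein of the large subunit, ranked 36, 19 and 29 in A and 1, 2 and 1 in B. Rps9 ran the other way, at ranks 1, 6 and 8 in A and 49, 43 and 44 in B. The others among the 25 were Rplp1, Rps2, Rpl10a, Rpl9, Rpl37, Rpl38, Rps29, Rps24, Rps4x, Rplp2, Rpl35 and Rps19. Ribosomal protein genes have many processed pseudogenes of nearly the same sequence, so which copies a probe binds is uncertain. The 10 genes of the 25 that encode no ribosomal protein were the cyclophilin Ppia, the translation elongation factor Eef1a1, the glutathione peroxidase Gpx1, Mpo, the tubulin Tuba1b, the lysozyme Lyz1, the interferon-induced membrane protein Ifitm1, mitochondrial cytochrome b (CYTB), the ferritin heavy chain Fth1 and the histone H2ac24. Lyz1 and Lyz2, and the histone H2A genes, are near-identical pairs or families whose probes may bind more than 1 member.

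**Figure D1:**
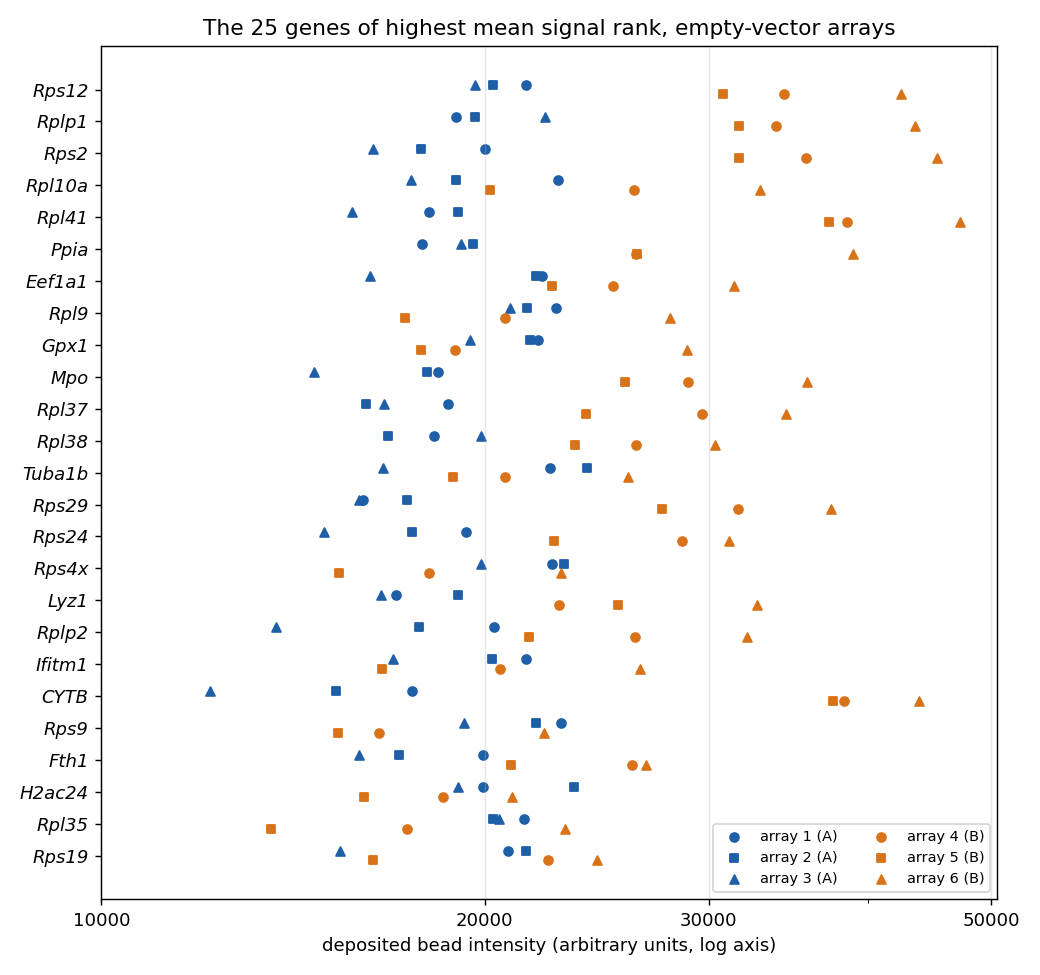
Deposited bead intensity (arbitrary units, log axis) of the 25 genes of highest mean signal rank, each gene a row with 3 points for dataset A (blue) and 3 for dataset B (orange). Points of Rpl41 and Rps12 lie further right on every dataset B array, while those of Rps9, Rps4x, Rpl35 and Rpl9 overlap between the datasets, with Rps9 at ranks 1, 6 and 8 in A and 49, 43 and 44 in B.

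The top of the intensity scale was narrower in dataset A, which bears on every rank among the brightest genes. The gene ranked first was 1.35, 1.57 and 1.74 times as bright as the gene ranked 50th on the dataset A arrays, and 2.35, 2.82 and 2.36 times as bright on those of dataset B. All 3 ratios of A lay below all 3 of B. Small differences in intensity therefore moved a gene by more ranks in dataset A, and differences in level between A and B among the brightest genes depended on how the arrays were scaled.

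Mpo, which encodes myeloperoxidase, the heme enzyme of the primary granule, was among the 38 brightest genes of every array. Its level was 14.25, 14.29 and 14.25 on the dataset A arrays, at ranks 31, 28 and 38, and 14.63, 14.61 and 14.61 on the dataset B arrays, at rank 8 on each. The replicates of a dataset differed by at most 0.04, and all of A lay below all of B. The size of that difference was not settled: it was -0.36 ± 0.13 (SE, limma adjusted p = 0.0455) with quantile normalization and -1.34 with median scaling, and the call was lost when any 1 array was left out (limma adjusted p = 0.069 to 0.11) and when every probe was tested (0.0575). The serine protease genes of the primary granule were also among the 100 brightest of every array. Elane, neutrophil elastase, lay at 14.70, 14.45 and 14.57 in A and at 13.53, 13.60 and 13.42 in B. Prtn3, proteinase 3, lay at 14.84, 14.28 and 14.56 in A and at 13.89, 14.21 and 14.04 in B, and Ctsg, cathepsin G, at 14.21, 14.89 and 14.48 in A and at 13.74, 14.05 and 13.82 in B. For each of the 3 genes the arrays of A were all higher than those of B with quantile normalization. Under median scaling the difference was 0.12 for Elane, -0.49 for Prtn3 and -0.33 for Ctsg, so no direction between the datasets is given for these genes.

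The promoters of 4 granule genes are printed because these genes stand at the top of the lists (Mpo) or differ between replicates and between datasets (Ltf, Camp and Ngp). Each runs from 250 bases before to 50 bases after the RefSeq start in GRCm38.p6, 5′ to 3′ on the strand of the gene. Capitals mark matches on either strand to TTNNGNAA, a loose form of the C/EBP site, and to GAGGAA, the core of the PU.1 site.
Mpo, chr11:87793534-87793833, plus strand: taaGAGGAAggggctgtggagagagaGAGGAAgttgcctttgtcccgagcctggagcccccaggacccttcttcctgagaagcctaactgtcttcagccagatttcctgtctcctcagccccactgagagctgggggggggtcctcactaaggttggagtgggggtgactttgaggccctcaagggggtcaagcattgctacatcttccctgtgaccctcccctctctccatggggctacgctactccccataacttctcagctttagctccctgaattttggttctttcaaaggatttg
Ltf, chr9:111019042-111019341, plus strand: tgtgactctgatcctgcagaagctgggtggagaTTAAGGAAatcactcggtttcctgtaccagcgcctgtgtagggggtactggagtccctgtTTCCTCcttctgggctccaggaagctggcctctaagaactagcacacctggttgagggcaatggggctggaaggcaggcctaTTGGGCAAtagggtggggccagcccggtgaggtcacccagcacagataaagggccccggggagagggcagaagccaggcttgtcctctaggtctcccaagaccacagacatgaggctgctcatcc
Camp, chr9:109849407-109849706, minus strand: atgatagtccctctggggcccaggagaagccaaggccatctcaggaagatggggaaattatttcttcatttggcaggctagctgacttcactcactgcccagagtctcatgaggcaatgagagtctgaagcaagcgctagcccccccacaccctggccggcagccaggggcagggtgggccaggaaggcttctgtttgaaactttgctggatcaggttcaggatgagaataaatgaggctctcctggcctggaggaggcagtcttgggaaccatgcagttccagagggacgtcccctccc
Ngp, chr9:110419558-110419857, plus strand: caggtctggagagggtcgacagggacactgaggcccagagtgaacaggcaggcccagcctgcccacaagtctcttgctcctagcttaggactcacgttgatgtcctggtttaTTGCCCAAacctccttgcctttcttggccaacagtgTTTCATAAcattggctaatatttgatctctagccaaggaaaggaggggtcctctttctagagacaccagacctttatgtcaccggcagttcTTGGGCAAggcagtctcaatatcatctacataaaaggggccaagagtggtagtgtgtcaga
The Mpo window held 2 matches to GAGGAA and none to TTNNGNAA. Ltf held 2 matches to TTNNGNAA and 1 to GAGGAA, Ngp held 3 to TTNNGNAA, and Camp held neither. These letters are common: 40.7% of 32851 RefSeq promoters of this length hold TTNNGNAA and 28.3% hold GAGGAA, so a match describes the window and is not shown to be a site in use.

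All 14 measured genes of the primary granule and promyelocyte list were detected on all 6 arrays, against 39.0% of all genes, and the list's median percentile of rank was 96.4, 97.2 and 96.8 on the dataset A arrays and 95.8, 95.7 and 95.1 on those of dataset B. Of these genes, 8 were higher and 2 lower in A by limma, where 31.9% and 17.4% of all tested genes were called in those directions, but under median scaling 2 were higher and 3 lower. Kit, the stem cell factor receptor of progenitors and mast cells, lay at 10.97, 10.60 and 10.79 in A and at 9.74, 9.55 and 9.49 in B, between the 91.9th and 97.0th percentile of every array. Csf1r, the receptor of monocyte colony-stimulating factor, lay at 8.96, 9.23 and 9.16 in A and at 8.96, 9.49 and 9.23 in B, where the ranges overlapped. Cpa3, the carboxypeptidase of mast cells and their precursors, lay at 10.53, 10.58 and 10.76 in A and at 9.79, 9.97 and 9.90 in B. Ltf, lactoferrin of the secondary granule, lay at 11.21, 10.32 and 10.98 in A and at 8.86, 8.08 and 7.55 in B. All 5 given markers, Mpo included, were detected on 6 of 6 arrays. Kit (difference 1.19 ± 0.15, SE, limma adjusted p = 0.000135), Cpa3 (0.73 ± 0.14, adjusted p = 0.0016) and Ltf (2.67 ± 0.31, adjusted p = 7.18e-05) were higher in A on every array, while Csf1r was not called (-0.11 ± 0.17, adjusted p = 0.605). In a mixed culture, fewer cells of a type and less RNA per cell cannot be told apart.

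**Figure D2:**
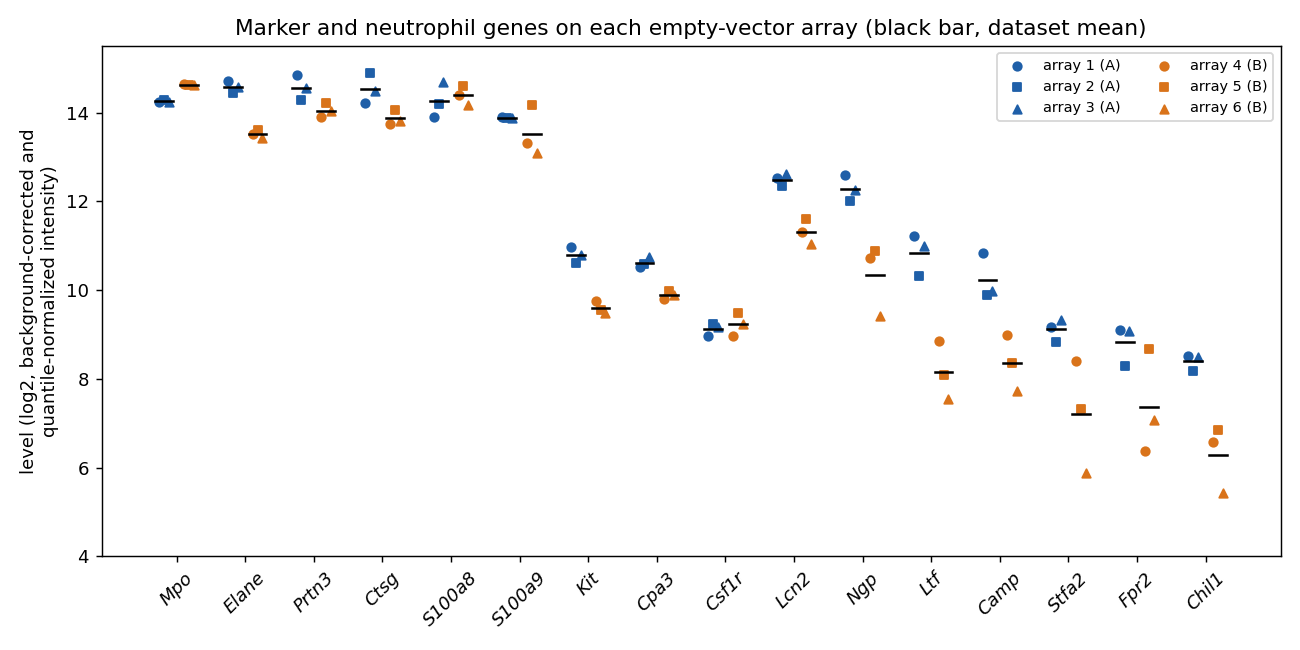
Level (log2 of normalized intensity, vertical axis) of 16 marker and neutrophil genes on each array, dataset A (blue) left of dataset B (orange), with black bars for the mean of 3 arrays. Primary granule genes and S100a8 lie above 13 on all 6 arrays, while Ltf lies between 10.32 and 11.21 in A and between 7.55 and 8.86 in B.

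Genes of later neutrophil maturation were detected widely but less evenly. Of 30 measured, 22 were detected on all 6 arrays and 1 on none, the stefin gene Stfa3. S100a8, which encodes a calcium-binding protein of the neutrophil cytosol, lay at 13.89, 14.18 and 14.68 in A and at 14.39, 14.60 and 14.18 in B. Its partner S100a9 lay at 13.91, 13.87 and 13.88 in A and at 13.30, 14.18 and 13.09 in B. Neither was called between the datasets, and S100a9 was even in A but spread over 2.13-fold in B. Stfa1, an intracellular cysteine protease inhibitor, lay at 13.91, 13.64 and 13.61 in A and at 12.86, 12.89 and 12.35 in B. Lcn2, the iron-chelator-binding protein lipocalin 2, lay at 12.53, 12.34 and 12.60 in A and at 11.30, 11.61 and 11.03 in B. In both genes all arrays of A were above all of B, and the call of Stfa1 was lost under median scaling (0.38, limma adjusted p = 0.105). The stefin genes Stfa1, Stfa2, Stfa3, Cstdc4 and Cstdc5 are near-identical, and a probe may bind several of them.

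By limma, 19 of 27 tested neutrophil maturation genes were higher in A and 2 were lower, where 31.9% and 17.4% of all tested genes were (median difference 1.02, against 0.16 over all genes tested). Under median scaling 17 were higher and 3 lower. Camp, the cathelicidin precursor, lay at 10.83, 9.88 and 9.98 in A and at 8.98, 8.36 and 7.73 in B. Ngp, neutrophilic granule protein, averaged 12.28 ± 0.30 in A (SD, n = 3) and lay at 10.71, 10.89 and 9.42 in B. Both were higher on all arrays of A (Camp 1.87 ± 0.31, SE, limma adjusted p = 0.000547, and Ngp 1.94 ± 0.32, adjusted p = 0.000565). The 2 genes lower in A were the matrix metalloprotease Mmp8, whose call was lost without background correction (limma adjusted p = 0.0581), and annexin A1 (Anxa1). Itgam, the CD11b integrin chain, lay at 5.79, 5.84 and 5.88 in A and was detected on none of the B arrays.

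Stem and progenitor genes were mixed. Of 23 measured, 14 were detected on all 6 arrays and 5 on none, among them Hoxa10, Hlf, Mecom and Slamf1, which mark or maintain stem cells. Lmo2, a transcriptional adaptor of early blood cells, had the highest signal rank of the list, at levels of 12.56, 12.56 and 12.60 in A and 12.36, 12.46 and 12.46 in B. Gata2, a progenitor and mast cell transcription factor, lay at 9.45, 9.36 and 9.36 in A and at 8.80, 8.53 and 8.95 in B. Lmo2 was not called between the datasets (0.14 ± 0.14, SE, limma adjusted p = 0.404), and Gata2 was higher in A. In A 5 of the 14 tested genes were higher and 4 lower, against 31.9% and 17.4% of all tested genes. Those lower included the sialomucin Cd34 (-1.54 ± 0.27, SE, limma adjusted p = 0.000905), the transcription factor Myb (-1.93 ± 0.17, adjusted p = 1.69e-05) and the surface protein Cd48 (-1.80 ± 0.15, adjusted p = 1.52e-05).

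The receptors for the factors in the medium were not all detected. Kit and Il6st, the signalling chain that interleukin-11 shares with interleukin-6, were detected on 6 of 6 arrays. The specific interleukin-11 receptor gene Il11ra1 was not measured here. Flt3, the receptor of Flt3 ligand and a marker of lymphoid-primed progenitors, lay at 4.33, 4.32 and 4.81 in A and at 4.21, 4.43 and 4.36 in B, and was detected on array 3 only. Among 20 lineage transcription factors 15 were detected on all 6. The granulocyte factor Cebpb lay at 11.48, 11.64 and 11.52 in A and at 11.46, 11.67 and 11.53 in B, with no difference called, while Cebpe, which drives secondary granule genes, lay at 10.52, 10.81 and 10.34 in A and at 9.16, 9.44 and 9.03 in B and was higher in A (1.35 ± 0.17, SE, limma adjusted p = 0.000127). The B-cell factor Pax5 and the T-cell factor Gata3 were detected on no array.

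Monocyte and macrophage genes were detected on all 6 arrays for 16 of 23. Lgals3, the lectin galectin-3, lay at 12.40, 12.58 and 12.65 in A and at 12.06, 11.91 and 11.92 in B. F13a1, a coagulation factor made by monocytes and megakaryocytes, lay at 12.13, 12.19 and 12.57 in A and at 10.21, 10.30 and 10.62 in B. Gpnmb, a glycoprotein of macrophages, lay at 10.57, 10.41 and 10.45 in A and at 11.02, 11.45 and 11.07 in B. The first 2 were higher in A and the third lower, but the call of Lgals3 was lost under median scaling (0.23, limma adjusted p = 0.231). Mpeg1, a pore-forming protein of phagocytes, lay at 10.12, 10.16 and 9.61 in A and at 10.73, 11.08 and 10.93 in B, again lower in A. In all, 5 of the 20 tested genes were higher in A and 9 lower, against 31.9% and 17.4% of all tested genes, with a median difference of -0.17. C1qa, a complement gene of resident macrophages, was detected on no array. The related gene C1qb was detected on 5 arrays, at 5.51, 4.39 and 5.02 in A and 4.91, 5.00 and 5.36 in B, close to the floor.

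Of 19 mast cell and basophil genes 8 (42.1%) were detected on all 6 arrays and 5 on none, where 39.0% and 36.5% of all genes were. Beside Cpa3, Hdc, which makes histamine, lay at 10.81, 10.87 and 10.90 in A and at 10.38, 10.47 and 10.21 in B. Mcpt8, a basophil protease, lay at 9.18, 8.73 and 8.44 in A and at 9.52, 9.84 and 9.77 in B. Prss34, another basophil and mast cell protease, lay at 9.49, 8.84 and 9.43 in A and at 8.25, 8.45 and 7.33 in B. Hdc and Prss34 were higher in A and Mcpt8 was lower. The proteases of mature mast cells were near the floor: Mcpt1, Mcpt2, Tpsab1 and Tpsb2 were detected on no array. Of 9 measured eosinophil genes only the granule protein gene Prg2 was detected on all 6, at 9.60, 8.88 and 9.61 in A and 7.85, 8.44 and 7.81 in B. Ear1 and Ear2 of that list were not measured. Ear3, a related gene outside the list, was detected on 6 of 6 arrays, at 6.23, 4.91 and 6.00 in A and 5.51, 7.32 and 5.30 in B.

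Markers of erythroid, lymphoid and stromal cells were seldom detected on every array. Of 22 erythroid genes 5 were detected on all 6 arrays and 6 on none, where 39.0% and 36.5% of all genes were. Those of highest signal rank were Nfe2, a transcription factor also used by megakaryocytes (11.38, 11.55 and 11.55 in A and 10.98, 11.05 and 11.09 in B), and Tfrc, the transferrin receptor of dividing cells (10.28, 10.62 and 10.76 in A and 9.87, 9.84 and 10.06 in B). The adult beta-globin genes Hbb-bs and Hbb-bt were detected on 6 of 6 arrays at levels of 6.93 to 7.99. Klf1, Gata1 and Alas2, also of the erythroid list, were detected on 2, 1 and 1 arrays. Of 16 megakaryocyte genes 4 were detected on all 6 and 5 on none. The platelet chemokine Pf4 was the highest, at 9.43, 8.35 and 8.58 in A and 8.45, 8.29 and 8.53 in B.

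Of 16 B-lymphoid genes 2 were detected on all 6 arrays, Cd79b, a chain of the B-cell receptor, and Dntt, a DNA polymerase of lymphoid precursors. Of 18 T-cell and natural killer genes 4 were, where 39.0% of all genes were. Cd8b1, the beta chain of CD8, lay at 11.34, 11.38 and 11.42 in A and at 10.38, 10.63 and 10.39 in B. Nkg7, a protein of cytotoxic granules, lay at 10.80, 10.98 and 10.90 in A and at 10.33, 10.57 and 9.94 in B. Prf1, perforin, lay at 7.09, 7.72 and 7.17 in A and at 8.19, 8.12 and 8.68 in B. Klrd1 was the fourth. The defining T-cell genes Cd3g, Cd4, Cd8a, Cd2 and Bcl11b and the natural killer genes Ncr1, Klrb1c and Eomes were detected on no array, so the Cd8b1 probe gave signal without its usual partner Cd8a. Of 22 stromal, bone, fat and endothelial genes 12 were detected on no array and 1, the smooth muscle actin gene Acta2, on all 6. Col1a1, Bglap, Adipoq and Dcn were among the undetected.

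**Figure D3:**
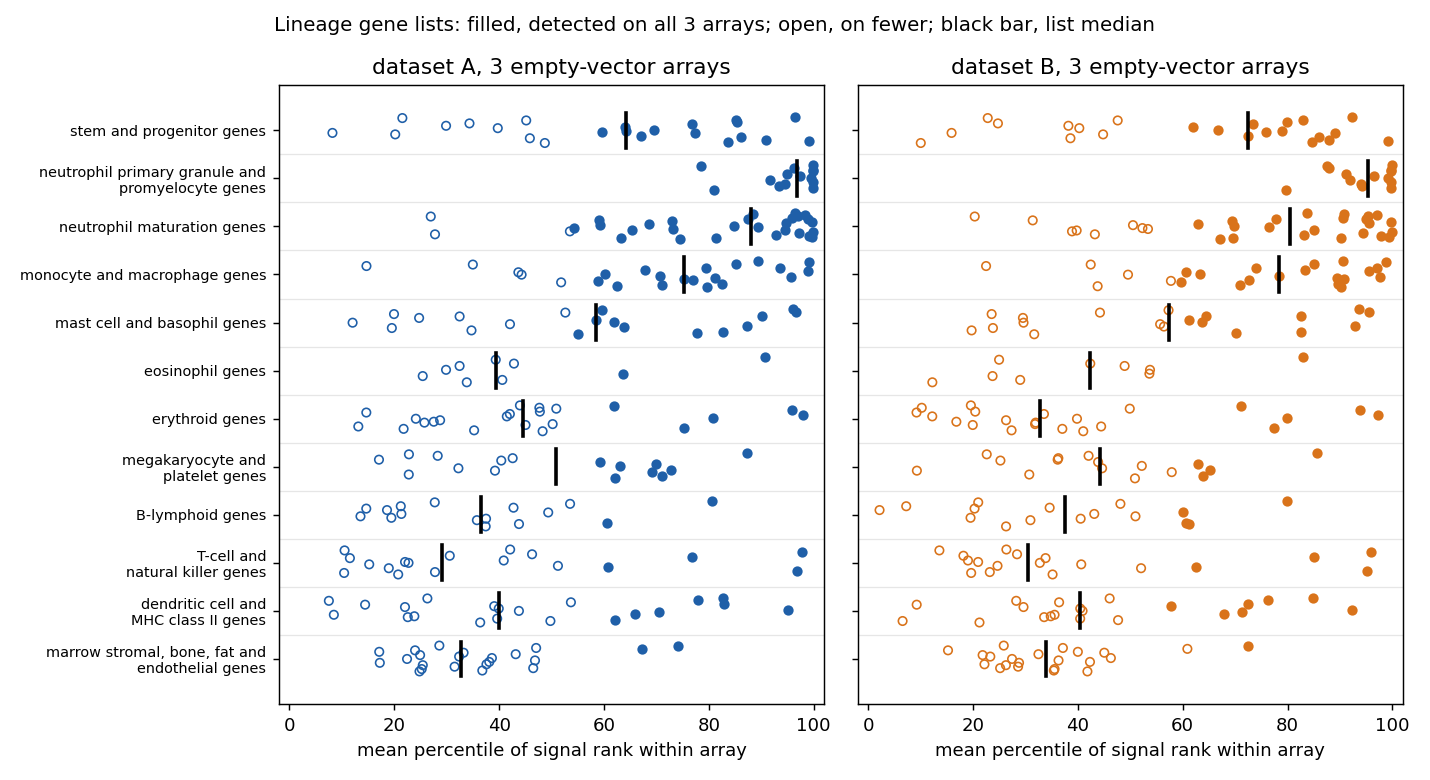
Percentile of signal rank within the array (horizontal axis, 100 the brightest), averaged over the 3 arrays of dataset A (left) and dataset B (right), for each measured gene of 12 lineage lists. Filled points were detected on all 3 arrays, open points on fewer, and black bars are list medians. The primary granule list lies furthest right in both panels, and the erythroid, lymphoid and stromal lists consist mostly of open points.

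The cultures carried the transcripts of dividing cells. Of 23 DNA replication genes 22 were detected on all 6 arrays and of 22 mitosis genes 17 were. The undetected probes, those of Pola1, Ccnb2, Bub1, Cenpe and Hmmr, sit among detected genes of the same processes. Mcm4, a subunit of the replicative helicase, lay at 11.71, 11.82 and 12.13 in A and at 11.34, 11.33 and 11.31 in B. Cenpa, the centromeric histone, lay at 12.79, 12.83 and 12.55 in A and at 12.41, 12.31 and 12.37 in B. The medians of both lists lay between the 88.1st and 92.6th percentile on every array. All 11 measured glycolysis genes were detected on all 6 arrays, led by Ldha, lactate dehydrogenase A, at 14.06, 14.12 and 14.21 in A and 13.21, 13.15 and 13.32 in B. Of 18 interferon-stimulated genes 4 were detected on all 6, and of these Ifitm3, which blocks virus entry, was among the 100 brightest. Xist, the RNA of the inactive X chromosome in female cells, was detected on all 6 arrays, at 9.55, 9.59 and 9.59 in A and 7.59, 7.07 and 7.53 in B. The Y-linked genes Eif2s3y and Kdm5d were detected on none. Of the 4 measured sex-linked genes, 1 was detected on all 6 arrays, 1 on 1 to 5 arrays and 2 on none.

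Replicates of a dataset differed little for most genes. Among genes detected on at least 2 of the 3 arrays, the median SD was 0.19 in dataset A and 0.16 in dataset B on the log2 scale. The highest and lowest array differed by over 2-fold for 100 of 9174 genes in A (1.09%) and 246 of 8477 genes in B (2.90%). These counts rest on 3 arrays and fall when 1 is left out: to 41, 45 and 29 without replicates 1, 2 and 3 in A, and to 101, 60 and 150 without replicates 4, 5 and 6 in B. They rest on the background correction still more, with 8 genes in A and 17 in B when it is omitted. On the lists used here, no cytosolic ribosomal protein gene (0 of 56) and no nuclear respiratory chain gene (0 of 64) was over 2-fold in either dataset. Sdhd, a nuclear respiratory chain gene outside that list, lay at 8.57, 8.11 and 7.51 in A, a 2.10-fold range.

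In dataset A the gene of largest SD was Ankrd37, an ankyrin repeat protein known as a target of hypoxia-inducible factor. It lay at 7.37, 8.84 and 7.36, a 2.80-fold range with array 2 high. Ndrg1, a stress-responsive gene also induced by low oxygen, lay at 8.39, 9.68 and 8.25, and its second probe at 8.85, 9.31 and 8.66. On both probes array 2 was again the highest and array 3 the lowest. Of 11 glycolysis genes 7 were highest on array 2, where 33.5% of all eligible genes were highest, with a median deviation from the dataset mean of 0.22, and none was over 2-fold. Of 18 mitosis genes 12 were highest on array 2.

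The Ankrd37 promoter is shown as that of the gene with the largest SD in dataset A, with the same window, source and build. Capitals mark ACGTG and GCGTG, the 2 forms of the core that hypoxia-inducible factors bind, on either strand.
Ankrd37, chr8:45999801-46000100, minus strand: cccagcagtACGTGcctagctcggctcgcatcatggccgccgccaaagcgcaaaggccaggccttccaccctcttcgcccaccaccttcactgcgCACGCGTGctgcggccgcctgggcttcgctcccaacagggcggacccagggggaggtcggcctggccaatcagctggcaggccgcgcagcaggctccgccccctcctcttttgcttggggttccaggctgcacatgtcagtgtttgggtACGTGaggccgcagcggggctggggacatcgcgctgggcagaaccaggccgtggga
ACGTG occurred 2 times and GCGTG 2 times, the GCGTG pair overlapping in CACGCGTG, where it is read once on each strand. Of all RefSeq promoters 19.6% hold ACGTG, 32.4% hold GCGTG and 43.8% hold either.

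The other genes of large SD in dataset A were highest on different arrays. Chac1, an enzyme that degrades glutathione and is induced by amino acid stress, lay at 8.78, 7.78 and 9.38. Cd34, the progenitor sialomucin, lay at 7.78, 7.83 and 6.60, low on array 3. Ppbp, a platelet chemokine precursor, lay at 5.56, 6.47 and 7.00, and its second probe at 5.43, 6.11 and 7.30. Ear3, an eosinophil-associated ribonuclease of a near-identical family, lay at 6.23, 4.91 and 6.00, low on array 2. The rest of the 15 largest were Golph3l, Zdhhc9, Trmt61a, Ccn2, Atxn10, Ndrg2, Taf9, Pbx4 and Clint1. Of the 100 genes over 2-fold, 46 were highest on array 1, 26 on array 2 and 28 on array 3. Of all eligible genes 29.6%, 33.5% and 36.9% were highest on these arrays. Without background correction 6 of these 15 genes stayed over 2-fold, Ankrd37, Atxn10, Chac1, Ndrg1, Taf9 and Trmt61a.

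In dataset B the range was widest for Mucl2, a mucin-like secreted protein. It lay at 10.87, 8.36 and 6.43 on arrays 4, 5 and 6, a 21.6-fold range, and its second probe at 9.19, 6.35 and 5.22. It was not detected on any array of A. Scgb2b27, a secretoglobin, which is a small secreted protein of glands, had the same highest and lowest array, at 6.99, 5.40 and 4.52 and on a second probe at 7.42, 4.86 and 4.63. Stfa2 lay at 8.40, 7.32 and 5.89. Genes of the monocyte-attracting chemokines did likewise, Ccl2 at 7.37, 6.44 and 5.29 and Ccl7 at 6.42, 5.17 and 4.87. On all 5 of these genes array 4 was the highest and array 6 the lowest.

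A second set was highest on array 5. Saa3, an acute-phase protein that macrophages also make, lay at 7.60, 9.95 and 8.25. Fpr2, a formyl peptide receptor of neutrophils, lay at 6.38, 8.67 and 7.07. Vcam1, the adhesion molecule of macrophages and stromal cells, lay at 4.66, 6.72 and 4.87. Ear3 (5.51, 7.32 and 5.30), Stfa2l1 (5.25, 6.67 and 4.72) and the acyltransferase Mogat2 (5.67, 7.20 and 5.75) were also highest there. Rrm2b and Tef were lowest on array 5, Bak1 was lowest on array 6, and Zc3hav1 was highest on array 4. Of the 100 largest SDs in B, 41 belonged to genes detected on only 2 of 3 arrays, and the median level of the 100 was 5.50, so many of them lie close to the floor. Without background correction 6 of the 15 named genes stayed over 2-fold, Mucl2, Saa3, Fpr2, Stfa2, Ccl2 and Scgb2b27.

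**Figure D4:**
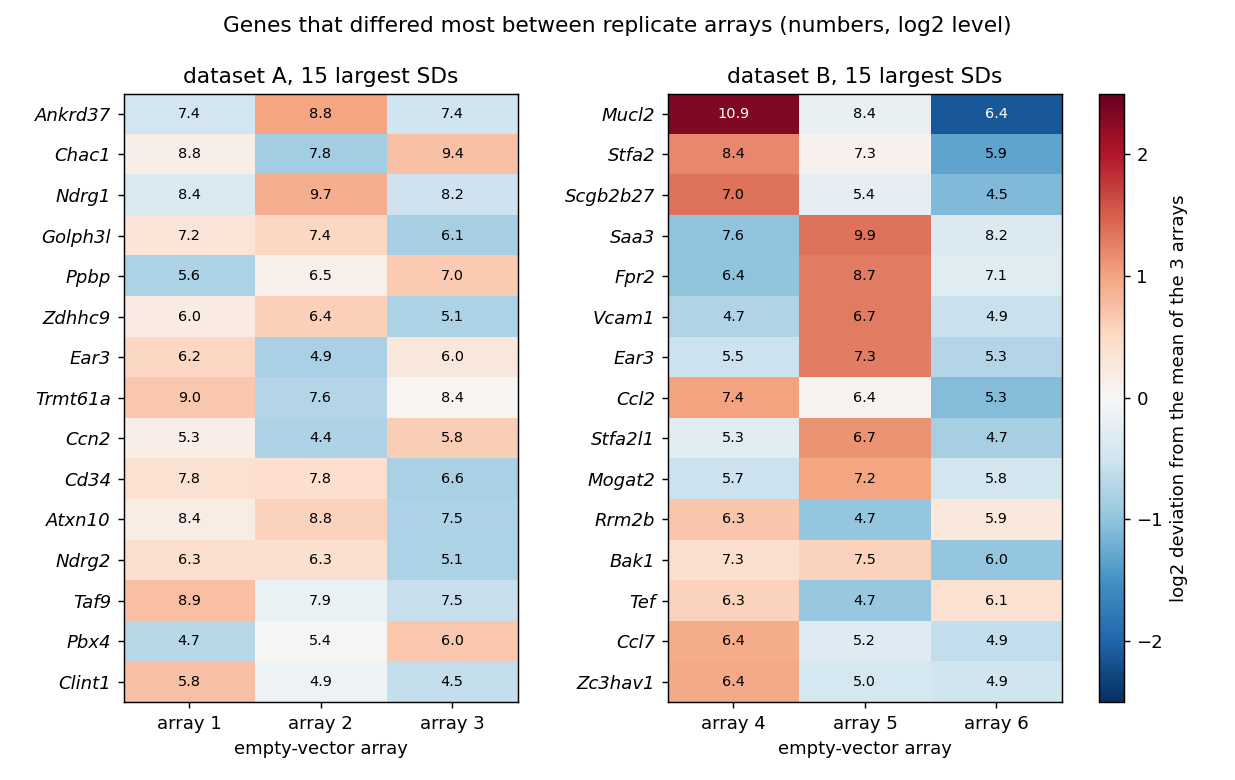
The 15 genes of largest SD between the 3 replicate arrays of dataset A (left) and dataset B (right), colour giving the log2 deviation from the mean of the 3 arrays and the printed number the level. Ankrd37 and Ndrg1 are high on array 2, Mucl2 is at 10.87 on array 4 and 6.43 on array 6, and Saa3, Fpr2 and Vcam1 are high on array 5.

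Neutrophil maturation and MHC class II genes were among those that spread in dataset B. Of 24 neutrophil maturation genes eligible in B, 11 spanned over 2-fold (2.90% of all genes did), against 1 of 28 in A (1.09% of all genes), and their median SD was 0.21 in A and 0.48 in B. In B 18 of the 24 were highest on array 5 and 17 lowest on array 6, where 35.7% and 30.2% of all eligible genes were. Of the 246 genes over 2-fold 82 were highest on array 4, 110 on array 5 and 54 on array 6, where 32.1%, 35.7% and 32.2% of all eligible genes were. The list had median deviations of -0.04, 0.31 and -0.31 on arrays 4, 5 and 6. In B the count was 8 without replicate 4, 7 without replicate 5 and 2 without replicate 6, an alternative chosen after seeing the data. The 11 were Ltf, Camp, Ngp, Chil1, S100a9, Mmp8, Stfa2, Cstdc4, Cstdc5, Cd177 and Fpr2. Stfa2, Cstdc4 and Cstdc5 are near-identical, so their probes may not be separate observations. Counts for the list are given with background correction only, and the count over all genes fell steeply without it. Of these Ltf, Camp, Stfa2 and Cstdc5 were highest on array 4, Mmp8 on array 6 and the others on array 5. In the promyelocyte list 1 of 14 genes spanned over 2-fold in B, the lectin gene Fcnb at 8.66, 9.54 and 8.22. Ltf had a second probe at 4.75, 6.81 and 4.46, high on array 5, while its first probe was highest on array 4, so the 2 probes disagree on the order of the arrays.

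Of 8 eligible dendritic cell and MHC class II genes 4 spanned over 2-fold in B, and all 4 were highest on array 5. They were Cd74, the invariant chain, at 7.90, 8.92 and 8.15, H2-Aa at 5.73, 6.83 and 5.57, H2-Ab1 at 6.65, 7.36 and 5.89 and H2-Eb1 at 4.28, 5.63 and 5.16. Other detected probes stayed under 2-fold, with log2 ranges of 0.90 and 0.62 for Cd74 and 0.57 and 0.48 for H2-Ab1. Each was highest on array 5. H2-Aa and H2-Eb1 were close to background, at deposited intensities of 142.8, 162.7 and 142.1 and of 106.9, 126.9 and 129.7. The medians of all probes were 113.3, 108.4 and 111.7. H2-Eb1 was detected on only 2 of these arrays. In A 0 of 9 did. The count in B was 2 without replicate 4, 0 without replicate 5 and 3 without replicate 6. The defining dendritic cell genes Itgax, Xcr1, Ccl17 and Cd209a were detected on no array, and Siglech, Batf3, Zbtb46 and Clec9a on 4, 2, 1 and 1. Immediate early genes, which respond within minutes to handling or stimuli, were highest on array 4 in 11 of 14, against 32.1% of all eligible genes in B, and 2 of 14 were over 2-fold. Fosb, 1 of these 2, lay at 7.67, 6.20 and 6.43 and was not detected in A.

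The genes that varied in 1 dataset were mostly not those that varied in the other. Of 8094 genes eligible in both, the 100 largest SDs of each dataset shared 4: Ear3, Ppbp, the cystatin-family gene Cstdc5 and the fucosyltransferase Fut7 of leukocyte selectin ligands. The number was 2 without replicate 1 and also 2 without replicate 4. The 100 genes chosen in A had a median SD in B of 0.190, against 0.156 over all these genes, and those chosen in B had a median SD in A of 0.219, against 0.190. Across genes, which are not independent replicates, the SDs correlated at a Spearman rho of 0.10 and a Pearson r of 0.09. A measure that did not enter the choice was the second probe of a gene. For genes over 2-fold it had the same highest and lowest array in 15 of 35 probes in A (42.9%) and 23 of 62 in B (37.1%), while over all eligible genes it did in 22.2% and 21.5%.

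**Figure D5:**
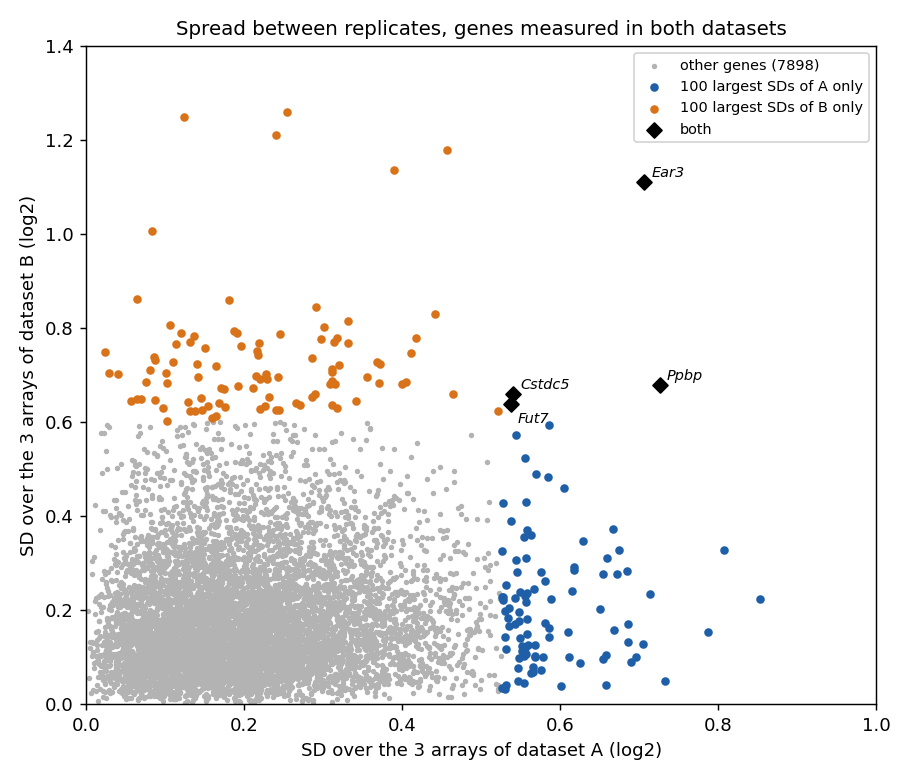
SD over the 3 arrays of dataset A (horizontal) against SD over the 3 arrays of dataset B (vertical), log2 scale, for 8094 genes detected on at least 2 of 3 arrays in both; Mucl2 is not plotted, as it was undetected in A. Blue and orange points are the 100 largest SDs of A and of B, and the 4 black diamonds are the genes in both sets.

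Between the datasets, limma called 4447 of 9029 tested genes (49.3%), 2877 higher in A (31.9%) and 1570 lower in A (17.4%), with 5039 at an unadjusted p under 0.05. Dataset and batch cannot be told apart here, and the split by direction depended on the scaling. Under median scaling 2089 were higher and 2210 lower (48.6% of calls higher, in place of 64.7%), and with normal scores of ranks 1915 were higher and 1604 lower (54.4%). Median scaling moved the median difference over all genes to -0.03, in place of 0.16.

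Highest in A relative to B was Taf15, an RNA-binding protein, at 9.23, 9.39 and 9.41 in A and 6.13, 5.87 and 6.34 in B (3.23 ± 0.16, SE, limma adjusted p = 2.16e-06). Ltf followed Fam102b in that order, and then came the cell cycle genes E2f2 and Ccnd2, the glucose transporter Slc2a3 and the lectin Clec2d, with Ppp1r3b, Acpp and Zdhhc21. Ccnd2, cyclin D2, lay at 10.50, 9.70 and 10.28 in A and at 7.98, 7.90 and 7.91 in B. Lowest in A was Mucl2, at least 15.2-fold lower as it was not detected there (limma adjusted p = 0.00118). That rank rested on array 4: without replicate 4 the bound was 6.82-fold and the difference -2.98, smaller in size than those of Ccl3 (-3.67) and ND4L (-3.38) in the same fit, and without replicate 6 the bound was 31.7-fold. The chemokine Ccl3 lay at 7.44, 6.94 and 7.85 in A and at 11.04, 11.13 and 11.03 in B (-3.65 ± 0.21, SE, limma adjusted p = 3e-06). Cxcl2, a neutrophil-attracting chemokine, was at least 6.97-fold lower in A, where no array detected it (limma adjusted p = 7.36e-06). S100a4, a calcium-binding protein, lay at 6.95, 7.13 and 6.50 in A and at 10.32, 9.86 and 9.58 in B. The sialyltransferase St6galnac2, Zfp607a and Zxda were also among the 10 largest, and the second probe of Zfp607a had the opposite sign.

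The other 3 of the 10 genes lowest in A were of the mitochondrial genome, and that genome is described as a group chosen after the values were seen. Of its 7 tested genes, 6 were lower in A and 0 higher, against 17.4% and 31.9% of all tested genes, with a median difference of -1.83. ND4L lay at 6.43, 5.86 and 6.10 in A and at 9.65, 8.86 and 10.16 in B, ATP6 at 11.31, 11.28 and 10.70 in A and 13.77, 13.82 and 13.74 in B, and COX2 at 12.02, 11.84 and 11.04 in A and 14.33, 14.29 and 14.28 in B. Of 64 nuclear genes of the respiratory chain 12 were higher in A and 24 lower, with a median difference of -0.07, and under median scaling 1 was higher and 26 lower. Immediate early genes were lower in A in 9 of 14 tested and higher in 2, against the same shares of all genes (median -1.21), and under median scaling lower in 11 and higher in 2. Dusp1, a phosphatase of this group, lay at 7.43, 6.83 and 7.06 in A and at 10.05, 9.68 and 9.42 in B, and Fos lay at 9.33, 8.90 and 9.38 in A and at 10.66, 10.26 and 10.09 in B.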

How the data were processed

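RNA (100 ng each) of 6 empty-vector cultures was measured on single-colour Illumina arrays of 45281 probes, per the labels' protocols. The authors deposited intensity values, bead signals averaged for each probe and made with GenomeStudio (version not given), per the submitters' processing notes. No background subtraction or scaling is visible in them. Each probe's deposited detection p-value, per the file headers, sets it against that array's negative controls. The authors' log2 values in the series matrix had array medians of 6.47 (A) and 6.80 (B), follow the intensities in direction, and are not centred per gene. The sources used here do not say how they were made. They served as an alternative. Columns of other vectors (33) were not used.

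In R 4.3.3 (limma 3.58.1 and the package data.table, version 1.17.8), normexp with an offset of 16 removed background, its controls being inferred by limma from the detection p-values. Quantiles were then equalized over the 6 arrays. A single gene symbol was given for 34885 probes, several for 18 and none for 10378. In the RefSeq gene table of GRCm38.p6, 34807 probes found their gene, with 0 symbols changed. Each gene was its brightest probe by the mean over the arrays. Spread was described, without a test, for genes detected on at least 2 of 3 arrays. Datasets were compared by lmFit and eBayes for genes detected on at least 3 of 6 arrays, and calls were made at a Benjamini-Hochberg adjusted p under 0.05. Lower bounds of folds set an undetected probe at the higher of its own level and the lowest level of a detected probe on that array. All adjusted p values come from limma, and set the difference between the datasets against the spread among the arrays within a dataset. Simulated data of 9029 genes held 200 changed genes, independent noise and no shift shared by a whole dataset. There limma recovered 77 of 100 differences of log2 1 and 100 of 100 of log2 2, with 13 false calls. In the real data 49.3% of genes were called and the split by direction moved with the scaling. The simulation lacked both features, so its counts do not give the error among those calls. Python 3.11.15 with pandas 2.3.3, numpy 2.4.6 and matplotlib 3.10.9 made the descriptions and figures. Promoters are RefSeq's.

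The cultures, gene lists, alternatives and rule for named genes were chosen with earlier results of these data known. The rule took the 25 genes of highest mean rank, the 4 members of highest mean rank of each list and the 5 markers, the 15 largest SDs of each dataset and over both, and the 10 largest called differences each way without overlap. Not every gene so taken is printed, and unnamed gene models were counted only. Other genes, among them undetected list members, Ngp, the MHC class II and mitochondrial genes, were named after their values were seen.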

Additional observations from a re-analysis of the deposited data

How the results depend on the processing

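Precision is limited by having 3 arrays a dataset, and ranges of dim genes by signal near background. Genes over a 2-fold range numbered 100 in dataset A and 246 in dataset B. Without background correction there were 8 in A and 17 in B, with series matrix values 7 and 13, and with quantiles within the dataset alone 172 and 129. Median scaling gave 211 in A, and requiring detection on all 3 arrays gave 136 in B. Leaving out 1 array gave 29 to 45 in A and 60 to 150 in B, as a range over 2 arrays is narrower by construction. The 100 most variable genes of both datasets shared 4, and 2 with median scaling, 7 with series matrix values and 2 to 4 with 1 array left out, the last chosen after seeing the data. The cause of the other changes was not tested.

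Genes detected on all 6 arrays stayed at 6868 to 7457 under other detection rules and 7460 to 7675 with 1 array left out, genes shared by the 100 brightest at 77 and at 77 to 80, and genes called between the datasets at 3519 to 4604 and at 3698 to 4200. Testing every probe called 6645 of 14155 probes, which are not genes. Among markers Kit, Cpa3 and Ltf kept their calls under all alternatives of the fit, and Mpo lost its call with any array left out, a check of markers and lists added after seeing the data. For the 20 genes named between datasets, 275 repeats under the alternatives kept direction and call, and 1 lost the call, that of Mucl2 with a trended robust prior (log2 -4.14). No paired analysis was possible because the arrays of A and B share no replicate number, and ranks within an array have no partner.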

Other observations

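Of 19057 genes, 277 were detected on all 3 arrays of dataset A and none of B, and 51 on all 3 of B and none of A. Each dataset A array detected more genes (9242 to 9561) than any dataset B array (8648 to 9106). Dataset and batch cannot be told apart in these counts.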
